A study of Mus musculus with 11 samples.

Results

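The transcription factor ATF4 and 9 genes linked to it were followed through the differentiation of mouse neural stem cells: Atf4, Ddit3, Trib3, Chac1, Asns, Phgdh, Psat1, Psph, Shmt2 and Mthfd2. They were chosen by gene symbol, and each symbol matched 1 of the 37991 genes of the RNA table, so all 10 were found. The cells came from the frontal cortex of C57BL/6J mouse embryos at day E14.5, and poly(A) RNA was sequenced from 11 libraries in 4 groups. NSC libraries (n = 3) were taken at day 0 from neural stem cells in proliferation medium. The other groups were taken at day 4, after a change of medium. Astrocyte libraries (n = 3) came from DMEM with 1% N-2 supplement, 1% fetal bovine serum and 2 mM GlutaMAX. Neuron libraries (n = 3) came from Neurobasal with GlutaMAX at 2 mM and B-27 supplement at 2%. Oligodendrocyte libraries (n = 2) came from that same Neurobasal medium with 30 ng/mL of the thyroid hormone T3. All groups share the strain, and the labels name no transgene or deletion. The group names are those of the labels and name the medium; a culture kept in proliferation medium to day 4 was not analysed here, so time and medium cannot be told apart in a comparison with NSC.

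More ATF4 is made when the translation factor eIF2 is phosphorylated by one of its kinases, since its messenger RNA is then translated better while most others are translated less; this is the integrated stress response. ATF4 protein turns on genes for amino acid synthesis, amino acid import and tRNA charging, and the abundance of its messenger RNA therefore does not measure its activity. PHGDH, PSAT1 and PSPH make serine from a glycolytic intermediate in 3 steps, and SHMT2 and MTHFD2 then pass the serine carbon into mitochondrial folate, which feeds nucleotide synthesis in dividing cells and supplies glycine. In the brain serine made in astrocytes and radial glia also serves as the source of D-serine and sphingolipids.

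ATF4 binds DNA with C/EBP partners at a short composite element, and the member promoters that hold its letters are shown here. Whether these letters go with differences in expression was not tested. RefSeq promoter windows (build GRCm38.p6, 250 bases before to 50 bases after the annotated start) were found for all 10 members, with 11 windows in all, and were searched on both strands for the 8 letters TGATGNAA. A match was found in Asns, Chac1 and Trib3, 3 of 10 members, and in 1304 of all 32851 windows (3.97%). Each window below runs 5′ to 3′ on the gene's strand, with the match in capitals. The Asns window is chr6:7693160-7693459 on the minus strand. The Chac1 window is chr2:119350992-119351291 on the plus strand. The Trib3 window is chr2:152344011-152344310 on the minus strand. In Chac1 and Trib3 the capitals are the reverse complement of the motif.
Asns: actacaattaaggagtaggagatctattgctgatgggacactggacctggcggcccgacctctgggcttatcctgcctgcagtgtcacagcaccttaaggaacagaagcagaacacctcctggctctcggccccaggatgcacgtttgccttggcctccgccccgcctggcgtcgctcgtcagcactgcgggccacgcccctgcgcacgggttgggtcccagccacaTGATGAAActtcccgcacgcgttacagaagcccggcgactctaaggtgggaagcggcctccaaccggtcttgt
Chac1: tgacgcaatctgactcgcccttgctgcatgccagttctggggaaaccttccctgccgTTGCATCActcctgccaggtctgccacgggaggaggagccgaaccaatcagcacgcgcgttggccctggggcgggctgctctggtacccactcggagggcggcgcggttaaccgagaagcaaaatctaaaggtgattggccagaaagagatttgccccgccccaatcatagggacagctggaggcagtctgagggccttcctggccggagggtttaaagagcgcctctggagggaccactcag
Trib3: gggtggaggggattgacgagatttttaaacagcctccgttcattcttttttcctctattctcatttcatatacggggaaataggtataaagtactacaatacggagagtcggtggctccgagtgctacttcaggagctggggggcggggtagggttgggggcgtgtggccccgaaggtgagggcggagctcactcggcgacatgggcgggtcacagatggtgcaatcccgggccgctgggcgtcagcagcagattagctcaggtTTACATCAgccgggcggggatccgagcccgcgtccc
The Asns match, TGATGAAA, covers bases 228 to 235 of its window. The Chac1 match, TTGCATCA, covers bases 58 to 65. The Trib3 match, TTACATCA, covers bases 265 to 272 and so lies after the annotated start. A match is a description of letters and not a measured binding site, and the 7 other members lack these letters only within these windows.

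Levels are in CPM, a unit in which reads are scaled to the same total in every library. That total was estimated to stand for 49.3 to 66.2 M reads, so 1 read was worth 0.0151 to 0.0203 CPM. The listed genes hold 74.95 to 80.2% of it. All 10 members passed the filter of at least 1 CPM in at least 2 libraries, as did 13342 genes in all. Trib3 passed it only through the NSC and Oligodendrocyte libraries. Differences are log2 fold changes on log2(CPM + 1) from limma fitted to all libraries, with p-values adjusted over the 13342 genes. Genes with an adjusted p below 0.05 are termed called. Cell type markers did not follow the labels throughout. The 10 summed astrocyte markers were at 17542 to 19452 CPM in Astrocyte and 12203 to 13324 CPM in Neuron. They were at 6584 to 7381 CPM in Oligodendrocyte and 1845 to 1944 CPM in NSC. Gfap was the largest part of the sum in Astrocyte (7631 ± 934 CPM, against 2647 ± 190 CPM in Neuron). Of the 10 markers, 4 were called higher and 5 lower in Astrocyte than in Neuron. Over all genes 40.3% were called higher and 22% lower in that comparison. The 10 neuron markers summed to 943 to 1027 CPM in NSC, 818 to 853 CPM in Astrocyte, 997 to 1296 CPM in Neuron and 979 to 1020 CPM in Oligodendrocyte. Map2 made up most of that sum in NSC (885 ± 45 CPM). Against NSC, 6 of the 8 tested neuron markers were called higher and 1 lower in Neuron. The split was 5 higher and 3 lower in Astrocyte and also in Oligodendrocyte. Over all genes, 43.5% were called higher and 39.6% lower in Neuron. These shares were 48% and 35.6% in Astrocyte, and 48.1% and 32.2% in Oligodendrocyte. Nefl and Stmn2 stayed under 1 CPM in every library. The 8 oligodendrocyte precursor markers summed to 1834 to 1968 CPM in NSC, 838 to 973 CPM in Astrocyte, 2485 to 3166 CPM in Neuron and 1920 to 2038 CPM in Oligodendrocyte. Olig1 and Olig2 made up most of that sum in NSC (1019 ± 26 and 733 ± 48 CPM). They were at 415 and 230 CPM in Oligodendrocyte. Of the 8, 4 were called higher and 4 lower in Oligodendrocyte than in NSC, so the similar sums hide changes both ways. The 10 mature oligodendrocyte markers summed to 2802 to 3210 CPM in Oligodendrocyte, 2792 to 3013 CPM in Neuron, 467 to 601 CPM in Astrocyte and 76.8 to 85.4 CPM in NSC. The 10 cell cycle genes summed to 3080 to 3123 CPM in NSC and to 125 to 204 CPM in the day 4 libraries. Microglial markers (6 genes) summed to at most 3.16 CPM in any library and endothelial and mesenchymal markers (8 genes) to at most 7.46 CPM. The cultures are bulk samples, so fewer cells of a type and less RNA per cell cannot be told apart.

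Atf4 itself fell on leaving proliferation medium. Atf4 (chromosome 15, 80085614 to 80087970, build NCBIM37) stood at 141, 137 and 157 CPM in the NSC libraries and at 51.4, 35.6 and 40.1 CPM in Astrocyte. It stood at 43.2, 44.0 and 44.7 CPM in Neuron and at 109 and 85.6 CPM in Oligodendrocyte. The NSC libraries were highest, the Oligodendrocyte libraries lay between, and the Astrocyte and Neuron libraries overlapped at the bottom. Against NSC, Atf4 was 3.42-fold lower in Astrocyte (log2 change -1.76, SE 0.12, adjusted p = 5.62e-09), 3.30-fold lower in Neuron (-1.70) and 1.49-fold lower in Oligodendrocyte (-0.58, adjusted p = 0.00108). Oligodendrocyte exceeded Neuron 2.21-fold (log2 change 1.12, SE 0.13, adjusted p = 5.71e-06) and Astrocyte 2.30-fold (1.19), while Astrocyte and Neuron differed by -0.07 (adjusted p = 0.633).

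Ddit3 went the other way. It encodes CHOP, a transcription factor of the same stress response that is known for its part in cell death. Ddit3 (chromosome 10, 126727830 to 126733344) stood at 2.92, 2.84 and 3.37 CPM in NSC and at 8.74, 7.69 and 7.61 CPM in Astrocyte. It stood at 8.73, 11.4 and 10.6 CPM in Neuron and at 8.01 and 6.34 CPM in Oligodendrocyte. All 8 day 4 libraries lay above all 3 NSC libraries. Ddit3 rose by 1.16 in Astrocyte, 1.47 in Neuron and 1.01 in Oligodendrocyte on the log2 scale (SE 0.11 to 0.12, adjusted p = 2.33e-08 in Neuron). Oligodendrocyte had less Ddit3 than Neuron, by -0.46 on the log2 scale (adjusted p = 0.00499), a call that was lost without Oligodendrocyte replicate 2 (adjusted p = 0.0899). The last 68 bases of Ddit3 overlap the methionyl-tRNA synthetase gene Mars on the opposite strand. Mars stood at 28 to 109 CPM and was lower in each day 4 group than in NSC. Whether the counting used the strand is not given in the sources used here.

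Trib3 and Chac1 were low in every library and highest in Oligodendrocyte. Trib3 encodes a pseudokinase that binds ATF4 and dampens its activity, and Chac1 encodes an enzyme that degrades glutathione. Trib3 (chromosome 2, 152163158 to 152169768) stood at 1.33, 1.24 and 1.62 CPM in NSC and at 0.50, 0.24 and 0.62 CPM in Astrocyte. It stood at 0.08, 0.17 and 0.08 CPM in Neuron, which is an estimated 4, 9 and 5 reads, and at 2.91 and 3.06 CPM in Oligodendrocyte, an estimated 187 and 194 reads. No library of one group overlapped any library of another group. Trib3 was 27.1-fold higher in Oligodendrocyte than in Neuron by the ratio of mean CPM, which the pseudocount reduces to a log2 change of 1.84 (SE 0.12, adjusted p = 2.20e-08). It was tested only because it passed the filter in NSC and Oligodendrocyte, the groups where it is high. Against NSC it fell in Neuron (-1.11) and Astrocyte (-0.73) and rose in Oligodendrocyte (0.74, adjusted p = 6.38e-05).

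Chac1 (chromosome 2, 119176965 to 119180117) was also highest in Oligodendrocyte. It stood at 2.03, 1.88 and 2.16 CPM in NSC, 1.34, 1.13 and 1.08 CPM in Astrocyte, 1.08, 1.58 and 0.88 CPM in Neuron and 4.45 and 4.26 CPM in Oligodendrocyte. Both Oligodendrocyte libraries lay above the other 9 libraries, and the Astrocyte and Neuron libraries overlapped. Chac1 rose in Oligodendrocyte against NSC by 0.83 on the log2 scale (adjusted p = 3.05e-05) and fell in Astrocyte (-0.47) and Neuron (-0.48). It was 3.69-fold higher in Oligodendrocyte than in Neuron (log2 change 1.31, SE 0.12, adjusted p = 7.75e-07). Under quantile normalization the rises over NSC in Oligodendrocyte were no longer called for either gene, at a log2 fold change of 0.16 for Chac1 (adjusted p = 0.305) and 0.07 for Trib3 (adjusted p = 0.585).

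Asns, which makes asparagine from aspartate and is a classic ATF4 target, moved with Atf4. Asns (chromosome 6, 7625169 to 7643254) stood at 66.1, 63.1 and 72.1 CPM in NSC and at 11, 12.7 and 11.4 CPM in Astrocyte. It stood at 12.4, 12.6 and 12.4 CPM in Neuron and at 44.3 and 48.1 CPM in Oligodendrocyte. The Oligodendrocyte libraries lay nearer to NSC than to the other day 4 groups and overlapped neither. Asns was 5.73-fold lower in Astrocyte than in NSC (-2.42 on the log2 scale, SE 0.07, adjusted p = 1.53e-12), 5.38-fold lower in Neuron (-2.34) and 1.45-fold lower in Oligodendrocyte (-0.53). It was 3.70-fold higher in Oligodendrocyte than in Neuron (log2 change 1.81, SE 0.08, adjusted p = 8.27e-10) and 3.94-fold higher than in Astrocyte. Asns per Atf4 is a ratio of CPM within a library, which a scaling factor common to all its genes cannot change. This ratio was 0.463 ± 0.006 in NSC and 0.484 ± 0.111 in Oligodendrocyte (mean ± SD, n = 3 and 2). In Astrocyte and Neuron the ratio was 0.285 ± 0.072 and 0.284 ± 0.006 (n = 3 and 3).

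**Figure D1:**
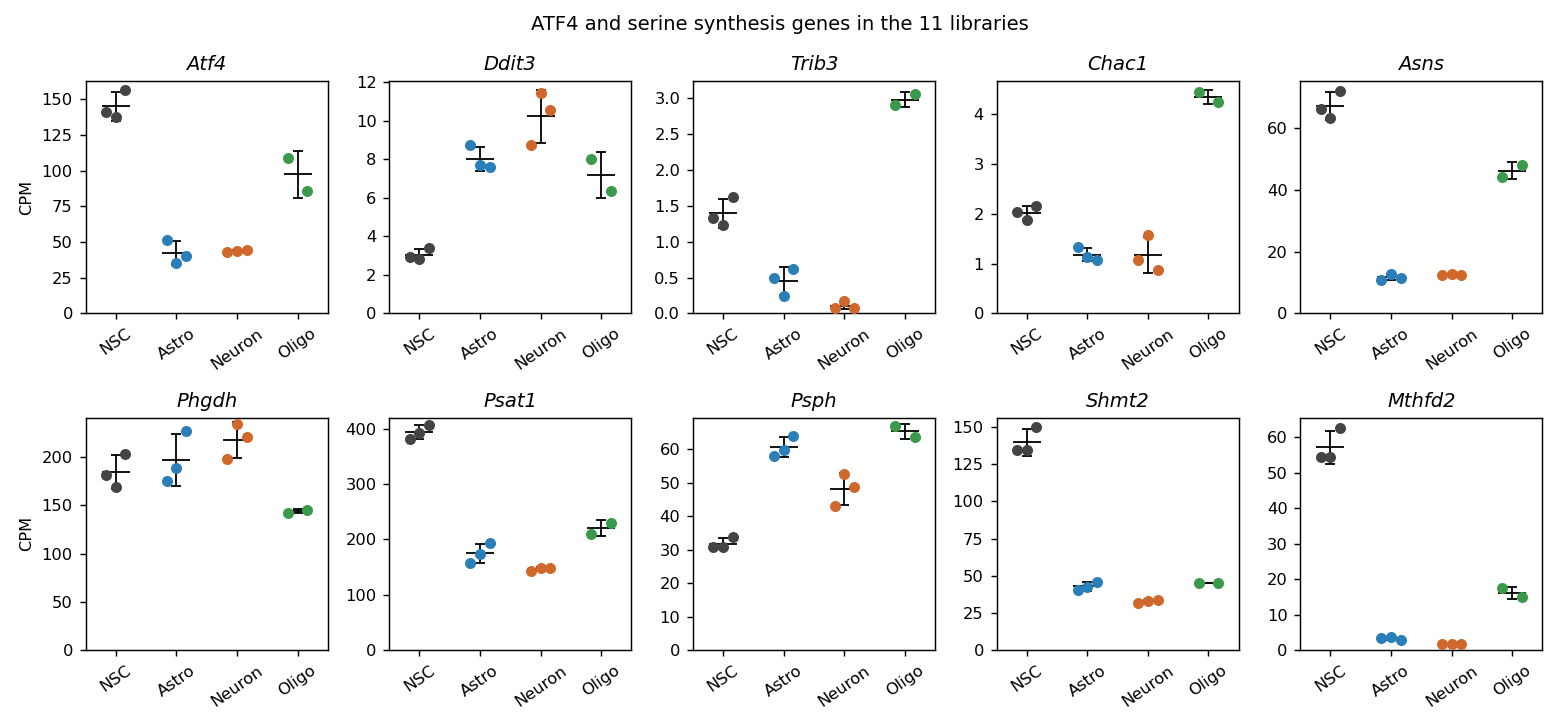
CPM of each of the 10 genes (one panel each, y axis from 0) in the 3 NSC, 3 Astrocyte, 3 Neuron and 2 Oligodendrocyte libraries. Points are libraries and bars are the mean ± SD. Atf4, Asns, Psat1, Shmt2 and Mthfd2 were highest in NSC, Trib3 and Chac1 in Oligodendrocyte, and Ddit3 and Psph were lowest in NSC.

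The 3 enzymes of serine synthesis did not move together. Phgdh, the first and committed step, overlapped its NSC values in Astrocyte and Neuron, while Psat1 fell and Psph rose in each day 4 group. Phgdh (chromosome 3, 98117093 to 98143913) stood at 181, 169 and 203 CPM in NSC and at 175, 189 and 227 CPM in Astrocyte. It stood at 197, 234 and 221 CPM in Neuron and at 142 and 145 CPM in Oligodendrocyte. The first 3 groups overlapped and both Oligodendrocyte libraries lay below the other 9. Phgdh was lower in Oligodendrocyte than in NSC by -0.35 on the log2 scale (adjusted p = 0.00902), a call lost without Oligodendrocyte replicate 1 (adjusted p = 0.0535), and lower than in Neuron by -0.59 (adjusted p = 0.00033). Astrocyte differed from NSC by 0.09 with a 95% interval of -0.12 to 0.30 (adjusted p = 0.393). Neuron exceeded NSC by 0.24 (adjusted p = 0.0365), but that call was lost under 3 other settings (adjusted p = 0.0537 to 0.162) and without any of 4 single libraries. The adjusted p was 0.0867 without NSC replicate 1 and 0.15 without NSC replicate 2. It was 0.0828 without Neuron replicate 2 and 0.086 without Neuron replicate 3.

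Psat1, the aminotransferase of the second step, was at 382, 393 and 407 CPM in NSC. Psat1 (chromosome 19, 15979168 to 16021827) stood at 158, 173 and 193 CPM in Astrocyte, 143, 149 and 149 CPM in Neuron and 210.1 and 230.4 CPM in Oligodendrocyte. The 4 groups overlapped nowhere. Psat1 fell by 2.25-fold in Astrocyte (log2 fold change -1.17), 2.68-fold in Neuron (-1.41, adjusted p = 3.42e-10) and 1.79-fold in Oligodendrocyte (-0.84). Oligodendrocyte exceeded Neuron by 0.58 on the log2 scale (adjusted p = 2.84e-05) and Astrocyte by 0.33 (adjusted p = 0.00339); the latter call was lost without Oligodendrocyte replicate 2 (adjusted p = 0.0591).

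Psph, the phosphatase that releases serine, rose in every day 4 group. Psph (chromosome 5, 130271434 to 130293129) stood at 31.0, 30.7 and 33.9 CPM in NSC and at 58.1, 59.9 and 64.0 CPM in Astrocyte. It stood at 43.2, 52.6 and 48.9 CPM in Neuron and at 67.0 and 63.8 CPM in Oligodendrocyte. Every day 4 library lay above every NSC library, and Neuron was the lowest of the day 4 groups. The log2 fold change against NSC was 0.91 in Astrocyte (SE 0.08, adjusted p = 6.28e-08), 0.58 in Neuron and 1.02 in Oligodendrocyte. Oligodendrocyte and Astrocyte differed by 0.11 (adjusted p = 0.31), with overlapping libraries.

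The CPM ratios of these enzymes within a library stood apart between day 0 and day 4. A scaling factor common to all genes of a library cannot change them. Psph per Psat1 was 0.0808 ± 0.0025 in NSC and 0.348 ± 0.018 in Astrocyte, 0.327 ± 0.026 in Neuron and 0.298 ± 0.030 in Oligodendrocyte. Psat1 per Phgdh was 2.15 ± 0.17 in NSC, 0.891 ± 0.036 in Astrocyte, 0.680 ± 0.045 in Neuron and 1.53 ± 0.08 in Oligodendrocyte. Divided by the annotated exon length, levels in NSC were 134 CPM per kb for Psat1, 97.4 for Phgdh and 18.4 for Psph. In Neuron they were 50.2 CPM per kb for Psat1, 115 for Phgdh and 27.8 for Psph, so that Phgdh replaced Psat1 as the highest of the 3. In Oligodendrocyte Psat1 and Phgdh were at 75 ± 4.9 and 76.0 ± 1.1 CPM per kb.

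Both mitochondrial folate enzymes fell in each day 4 group. SHMT2 splits serine into glycine and a folate-bound carbon, and MTHFD2 oxidises that carbon. Shmt2 (chromosome 10, 126954195 to 126959491) stood at 134, 134 and 150.3 CPM in NSC and at 40.4, 42.1 and 46.0 CPM in Astrocyte. It stood at 31.7, 33.1 and 33.5 CPM in Neuron and at 44.9 and 45.2 CPM in Oligodendrocyte. The day 4 libraries spanned a narrow range far under NSC, and the 2 Oligodendrocyte libraries lay within the Astrocyte range. Shmt2 fell by 4.26-fold in Neuron (-2.06 on the log2 scale, SE 0.07, adjusted p = 3.04e-12), 3.26-fold in Astrocyte (-1.68) and 3.10-fold in Oligodendrocyte (-1.61). Oligodendrocyte exceeded Neuron by 0.45 (adjusted p = 0.000123).

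Mthfd2 (chromosome 6, 83255685 to 83267600) had the widest range of the members above 1 CPM in every library. It stood at 54.6, 54.4 and 62.5 CPM in NSC and at 3.5, 3.67 and 2.92 CPM in Astrocyte. It stood at 1.79, 1.86 and 1.84 CPM in Neuron and at 17.4 and 15.0 CPM in Oligodendrocyte. The 4 groups overlapped nowhere and stood in the order NSC, Oligodendrocyte, Astrocyte, Neuron. Mthfd2 was 31.2-fold lower in Neuron than in NSC (-4.36 on the log2 scale, SE 0.09, adjusted p = 7.10e-14), 17.0-fold lower in Astrocyte (-3.74) and 3.53-fold lower in Oligodendrocyte (-1.76). It was 8.86-fold higher in Oligodendrocyte than in Neuron (log2 change 2.60, SE 0.10, adjusted p = 2.41e-10) and 4.82-fold higher than in Astrocyte (1.98). Mthfd2 per Shmt2 was 0.409 ± 0.006 in NSC and 0.360 ± 0.039 in Oligodendrocyte, against 0.0791 ± 0.0135 in Astrocyte and 0.0559 ± 0.0009 in Neuron; the ranges of NSC and Oligodendrocyte, 0.405 to 0.416 and 0.332 to 0.388, lay apart from the 2 lower groups. The cell cycle genes, all 10 of which fell in each day 4 group, were at 201 to 204 CPM in Oligodendrocyte, 164 to 193 CPM in Astrocyte and 125 to 142 CPM in Neuron; their part in these differences was not tested.

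**Figure D2:**
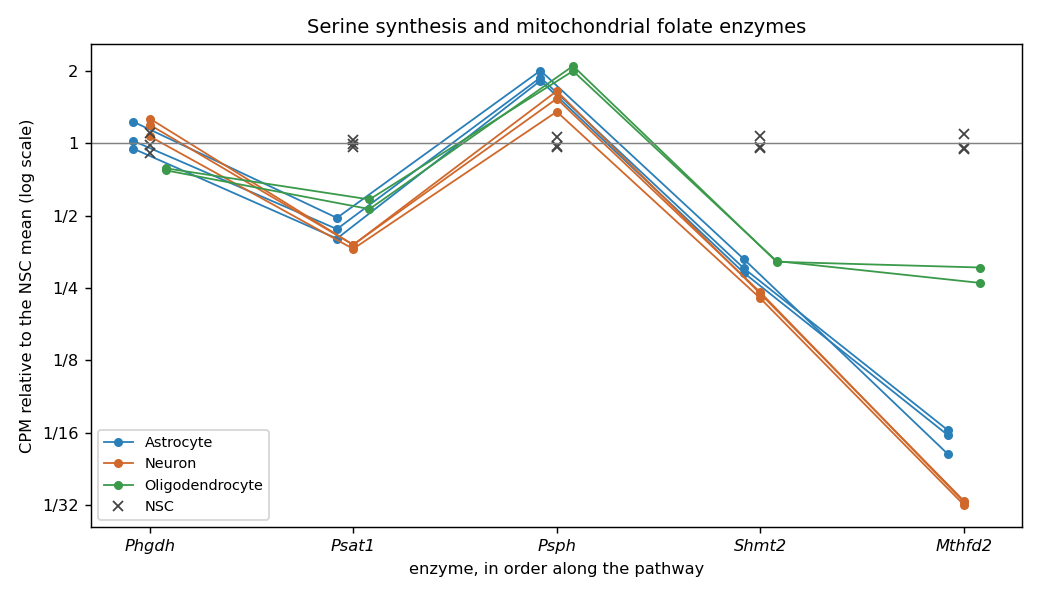
CPM of each day 4 library divided by the NSC mean (log axis) for the enzymes in pathway order, Phgdh, Psat1, Psph, Shmt2 and Mthfd2. Phgdh stayed near 1, Psph lay above 1 in every library, and Mthfd2 reached the lowest values in Neuron, 31.2-fold under NSC.

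Counted over the 10 members, the move from NSC to Neuron gave 3 called higher and 7 called lower, with a median log2 fold change of -1.26 against 0.06 over all genes tested. Against NSC, 2 members were higher and 7 lower in Astrocyte (median -0.95, all genes 0.15) and 4 were higher and 6 lower in Oligodendrocyte (median -0.44, all genes 0.19). These counts read against high backgrounds: 83.1% of all genes were called in Neuron (43.5% higher, 39.6% lower), 83.6% in Astrocyte (48% higher, 35.6% lower) and 80.2% in Oligodendrocyte (48.1% higher, 32.2% lower). The libraries were fully separated from NSC for 9, 9 and 10 members in Astrocyte, Neuron and Oligodendrocyte, where 86.2%, 83.2% and 89.3% of all genes were. The 3 comparisons share the NSC libraries. The share of members called in either direction is near the background.

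Oligodendrocyte and Neuron, whose media differ in T3 by the labels, gave 8 members called higher and 2 lower in Oligodendrocyte, where 67.5% of all genes were called and 43.9% were called higher and 23.6% lower. The 8 were Atf4, Asns, Chac1, Trib3, Psat1, Psph, Shmt2 and Mthfd2, and the 2 were Ddit3 and Phgdh. Of the 8, Trib3 passed the expression filter only through the NSC and Oligodendrocyte libraries. The median was 0.85 against 0.15 over all genes. At 2-fold or more on the log2(CPM + 1) scale, Mthfd2, Trib3, Asns, Chac1 and Atf4 were called, where 12.5% of all genes were. All 10 members had libraries that did not overlap, as did 75.7% of all genes. The 8 higher and 2 lower calls stood with the CPM rescaled by median-of-ratios or quantile-normalized, which brought the share of higher calls among all called genes from 65.1% to 52.4% and 48.0%. In the same comparison 0 of the 8 precursor markers were higher and 6 lower (8 lower with median-of-ratios scaling), and 1 of the 10 astrocyte markers was higher and 8 lower; their part in the members' differences was not tested. Oligodendrocyte against Astrocyte gave 6 higher and 1 lower (median 0.76, all genes 0.04), where 52.2% of all genes were called, 28.7% higher and 23.5% lower; 7 members had separate libraries, as did 71.7% of all genes. Astrocyte against Neuron gave 5 higher and 1 lower (median 0.13, all genes 0.11), where 62.2% were called, 40.3% higher and 22% lower; 5 members had separate libraries, as did 63% of all genes. In that comparison the call for Psat1 (0.24) was lost under median-of-ratios scaling (adjusted p = 0.147) and without Astrocyte replicate 3 (adjusted p = 0.0515), and that for Ddit3 (-0.31, adjusted p = 0.0249) under 5 alternatives (adjusted p = 0.0666 to 0.0762), including without Astrocyte replicates 2 or 3 or Neuron replicates 2 or 3. Trib3 (0.38) lost its call there under quantile normalization alone (adjusted p = 0.108), and Mthfd2 (0.62), Shmt2 (0.37) and Psph (0.33) kept theirs under every alternative.

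**Figure D3:**
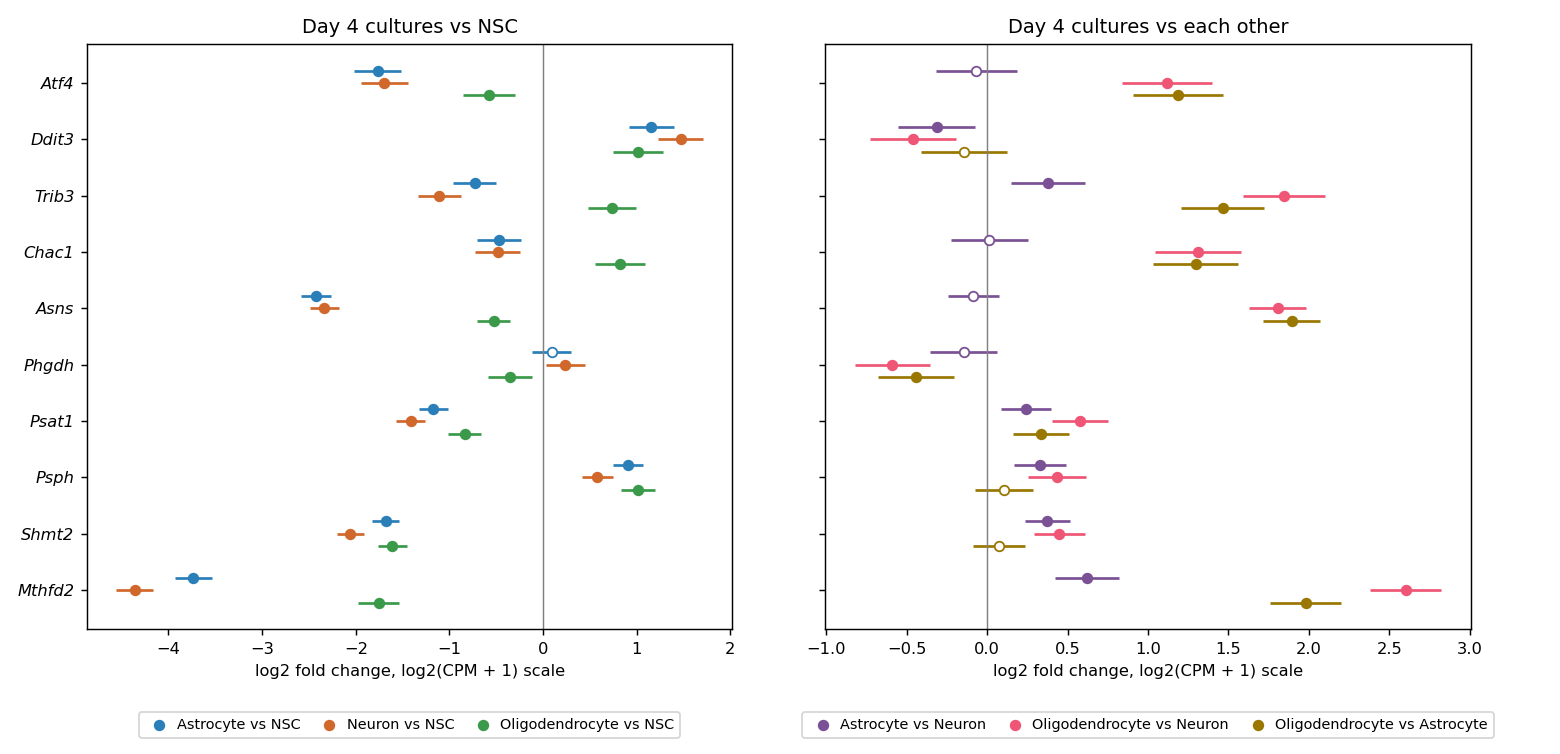
Log2 fold change of each member with its 95% interval, on log2(CPM + 1), for the 3 comparisons with NSC (left) and the 3 between day 4 groups (right); filled symbols were called and open symbols were not. Mthfd2 reached -4.36 in Neuron against NSC and 2.60 in Oligodendrocyte against Neuron, while Phgdh stayed within 0.59 of 0.

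Across the 11 libraries, with Pearson's r on log2(CPM + 1) over 10306 other genes, the genes most like Atf4 were Ifrd1 (r = 0.982), 4930503L19Rik, Mum1 and the cationic amino acid carrier Slc7a1 (r = 0.980). Asns ranked 14 (r = 0.973) and Mthfd2 ranked 22 (r = 0.970), while Psat1 ranked 536, Shmt2 ranked 1295, and Psph (r = -0.61), Phgdh (r = -0.51) and Ddit3 (r = -0.84) ran against it. The genes most like Ddit3 were Eif4a2 (r = 0.996), Casp6, Lin52 and 1810031K17Rik, and those most like Phgdh were Marcksl1 (r = 0.962), Ubb, Ptov1 and Sdcbp. The points share their groups and libraries, so these values describe the order of 4 group means more than 11 separate measurements.

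The lists that follow are given by counts of called genes, to be read against the shares of all genes called against NSC, 39.6% lower and 43.5% higher in Neuron, 35.6% and 48% in Astrocyte, 32.2% and 48.1% in Oligodendrocyte. The medians over all genes were 0.06, 0.15 and 0.19 in that order. For Oligodendrocyte against Neuron, 43.9% of all genes were called higher and 23.6% lower, with a median of 0.15.

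The machinery upstream of ATF4 was read first. Of 13 genes for eIF2 kinases, eIF2, its exchange factor eIF2B and its phosphatase subunits, 1 was higher and 8 lower in Neuron than in NSC (median -0.26), 4 higher and 6 lower in Astrocyte (0.01), and 4 higher and 5 lower in Oligodendrocyte (-0.09). With median-of-ratios scaling the split was 1 higher and 10 lower in Neuron (median -0.33), 4 and 8 in Astrocyte (-0.17), and 2 and 8 in Oligodendrocyte (-0.29). Eif2s1, the eIF2 subunit that is phosphorylated, fell from 163 ± 5.2 CPM in NSC to 47.4 ± 0.5 CPM in Neuron (-1.76, adjusted p = 6.32e-12). Its level was also below NSC in Astrocyte (56.6 ± 4.0 CPM) and Oligodendrocyte (67.3 ± 3.0 CPM). Eif2ak2, the kinase that senses double-stranded RNA, rose from 20.5 ± 1.3 CPM in NSC to 51.3 ± 0.8 CPM in Oligodendrocyte (1.29) and 48.2 ± 3.5 CPM in Astrocyte (1.19) but was at 19.6 ± 2.7 CPM in Neuron (-0.07, adjusted p = 0.513). The eIF2B subunit Eif2b3 fell in all 3 groups, and Eif2b2 was lower in Neuron (-0.43) and higher in Astrocyte (0.49) and Oligodendrocyte (0.38). Ppp1r15a, the stress-induced phosphatase subunit GADD34, was picked after its values were seen because it moved like Ddit3. It stood at 10.9 ± 1.0 CPM in NSC, 16.7 ± 1.6 CPM in Astrocyte, 20.0 ± 2.0 CPM in Neuron and 13.5 ± 1.3 CPM in Oligodendrocyte. The log2 fold changes were 0.58, 0.82 and 0.29 in these day 4 groups, against medians of 0.15, 0.06 and 0.19 over all genes. Phosphorylation of eIF2 and ATF4 protein were not measured in these libraries.

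Other ATF4 targets were mostly higher in Oligodendrocyte than in Neuron. Of 18 listed and 16 tested, 12 were higher and 1 lower in Oligodendrocyte than in Neuron (median 0.80, all genes 0.15). Against NSC, 9 rose and 7 fell in Oligodendrocyte (median 0.36), 5 rose and 7 fell in Neuron (-0.12), and 6 rose and 9 fell in Astrocyte (-0.21). With median-of-ratios scaling, which left 17 tested, 7 rose and 7 fell in Oligodendrocyte (median 0.08). Atf5, a transcription factor translated like ATF4, stood at 295 ± 41 CPM in Oligodendrocyte, 25.4 ± 3.3 CPM in Neuron, 51.8 ± 1.9 CPM in Astrocyte and 29.0 ± 1.6 CPM in NSC; it rose by 3.30 on the log2 scale over NSC and by 3.49 over Neuron (adjusted p = 2.41e-11). The very-low-density lipoprotein receptor gene Vldlr stood at 103 ± 7.3 CPM in Oligodendrocyte and 19.1 ± 1.4 CPM in Astrocyte (2.37). The secreted stress factors Stc2 and Gdf15 fell in all 3 day 4 groups, least in Oligodendrocyte: Gdf15 went from 5.26 ± 0.32 CPM in NSC to 2.11 ± 0.08 CPM in Oligodendrocyte, 0.280 ± 0.026 CPM in Astrocyte and 0.147 ± 0.015 CPM in Neuron.

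Amino acid carriers moved both ways. Of 11 tested, 7 were higher and 3 lower in Oligodendrocyte than in Neuron (median 0.60), and against NSC 3 rose and 8 fell in Neuron (-0.88), 4 rose and 7 fell in Astrocyte (-0.86) and 4 rose and 5 fell in Oligodendrocyte (-0.10). Slc7a11, which imports cystine for glutathione synthesis, rose from 18.7 ± 1.8 CPM in NSC to 235 ± 40 CPM in Oligodendrocyte (3.58, adjusted p = 1.35e-10) and to 34.0 ± 2.6 and 42.6 ± 9.8 CPM in Astrocyte and Neuron (0.83 and 1.13). The neutral amino acid carrier Slc1a5 fell from 28.9 ± 2.6 CPM in NSC to 2.48 ± 0.42 CPM in Neuron (-3.11) and 6.88 ± 0.26 CPM in Astrocyte (-1.92) and was at 32.3 ± 4.1 CPM in Oligodendrocyte (0.15, adjusted p = 0.248). Slc7a1, whose profile was near that of Atf4, went from 122 ± 5.9 CPM in NSC to 11 ± 1.5 CPM in Astrocyte, 14.48 ± 2.86 CPM in Neuron and 59.3 ± 2.8 CPM in Oligodendrocyte.

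The cytosolic aminoacyl-tRNA synthetases, which charge tRNAs, were mostly lower at day 4. Of 20, 18 fell and 1 rose in Neuron (median -0.998, all genes 0.06), 18 fell and 2 rose in Astrocyte (-0.87, all genes 0.15), and 15 fell and 1 rose in Oligodendrocyte (-0.51, all genes 0.19). Between day 4 groups, 16 were higher and 0 lower in Oligodendrocyte than in Neuron (median 0.47), and 13 and 0 with either median-of-ratios or quantile scaling. Vars fell from 189 ± 9.6 CPM in NSC to 36.1 ± 2.3 CPM in Neuron (-2.36), and stood at 43.9 CPM in Astrocyte and 54.2 CPM in Oligodendrocyte. Iars fell from 150.6 ± 4.3 CPM in NSC to 46.4 ± 3.1 CPM in Astrocyte (-1.68), and stood at 54.7 CPM in Neuron and 80.35 CPM in Oligodendrocyte. Aars was at 166 ± 6.9 CPM in Oligodendrocyte against 65.0 ± 2.2 CPM in Neuron (1.34, adjusted p = 1.72e-09), and Cars at 39.0 ± 0.23 against 16.9 ± 1.3 CPM (1.16).

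The other enzymes of serine, glycine and folate metabolism split. Of 16 tested, 6 rose and 10 fell in Neuron (median -0.58), 5 rose and 7 fell in Astrocyte (-0.06), and 5 rose and 9 fell in Oligodendrocyte (-0.46); with median-of-ratios scaling 5 rose and 10 fell in Astrocyte (-0.24) and 4 rose and 10 fell in Oligodendrocyte (-0.68), and with quantile normalization the Astrocyte median was 0.02. In Oligodendrocyte against Neuron 10 were higher and 3 lower (median 0.30), but 7 and 4 under median-of-ratios scaling and 6 and 4 under quantile normalization. With each gene taken at its largest fall, Shmt1, Mthfd1l and Tyms fell most in the list, each in Neuron. Shmt1, the cytosolic counterpart of Shmt2, went from 64.2 ± 2.6 CPM in NSC to 2.89 ± 0.28 CPM in Neuron (-4.07, adjusted p = 3.41e-14). Mthfd1l, which releases mitochondrial formate, went from 59.1 ± 2.2 to 2.79 ± 0.29 CPM (-3.99). Thymidylate synthase, Tyms, went from 43.6 ± 0.8 to 4.43 ± 0.36 CPM (-3.04). These falls were not particular to Neuron. In Astrocyte and Oligodendrocyte, Shmt1 stood at 4.14 and 6.9 CPM, Mthfd1l at 4.14 and 13.6 CPM, and Tyms at 4.85 and 6.8 CPM. Mthfd1, a cytosolic folate enzyme of purine synthesis named after its values were seen, stood at 141 ± 6.3 CPM in NSC. It was at 135 ± 2.8 CPM in Astrocyte (-0.05, adjusted p = 0.392) and 83.5 ± 3.2 CPM in Neuron (-0.74). In Oligodendrocyte it was at 165 ± 4.6 CPM (0.23, adjusted p = 0.00404). That rise was close to the median of all genes in Oligodendrocyte against NSC, 0.19, which became -0.003 with median-of-ratios scaling. Mthfd1l was higher in Oligodendrocyte, at 13.6 ± 0.5 CPM, than in Neuron (1.95, adjusted p = 2.03e-09). Cbs, which takes serine into cystathionine, was highest in Neuron at 138 ± 12 CPM and lowest in Oligodendrocyte at 41.3 ± 3.5 CPM (-1.72).

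**Figure D4:**
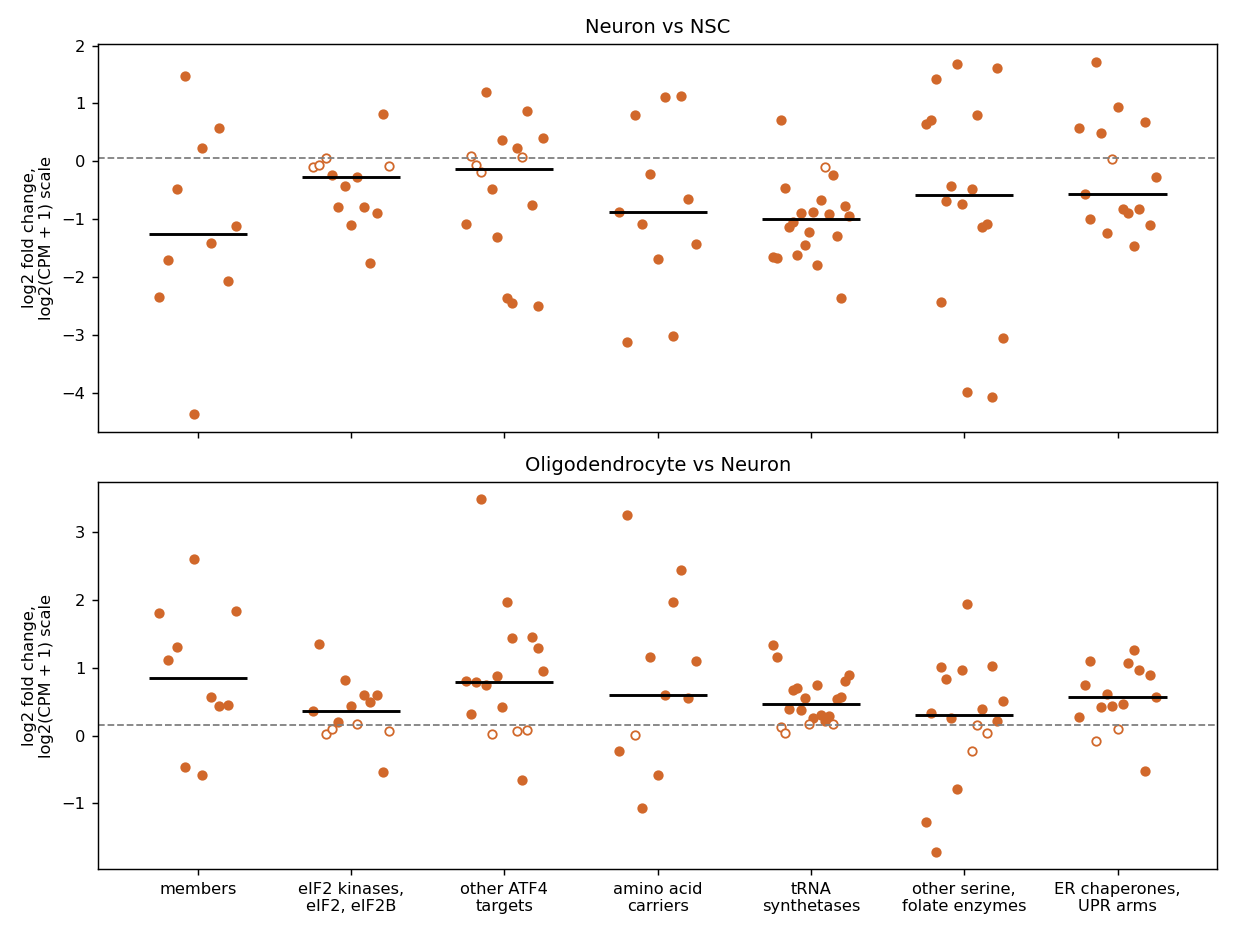
Log2 fold change of every tested gene of each list, one point per gene, for Neuron against NSC and Oligodendrocyte against Neuron; open points were not called, black bars are list medians and the dashed line is the median of all genes. The tRNA synthetases had a median of -0.998 in the first comparison and 0.47 in the second.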

How the data were processed

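Poly(A) RNA-seq libraries (TruSeq Stranded mRNA, Illumina HiSeq, per the labels' protocols) of 11 samples were used. The authors deposited 1 table of CPM per gene, rounded to 2 decimals, in which the listed genes hold 74.95 to 80.2% of a library's CPM total. The submitters' processing notes name bcl2fastq 1.8.4, TopHat2 2.0.8, HTSeq 0.6.1, edgeR 3.2.4, R 3.0.0, HOMER and the build NCBIM37, with no role or order. The authors' SD columns, a signal unit here, and their mean columns were deposited in the same table and were not used. Depth was estimated from the steps between low CPM values, on which 99.5 to 100.0% of values below 3 CPM lay within rounding. Because rounding is close in size to 1 read, counts were not rebuilt and no count test was run. CPM is not scaled by gene length, and a gene that takes a large share of a library lowers the CPM of the others.

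Here log2(CPM + 1) was computed for the 13342 genes that reached 1 CPM in 2 or more libraries and fitted with limma 3.58.1 in R 4.3.3 (1 mean per group, all 11 libraries, trended variance prior, 7 residual and 5.958 prior degrees of freedom). The 6 two-sided comparisons were each adjusted by Benjamini-Hochberg over all tested genes. The procedure was tested on simulated data. The labels call the samples of a group biological replicates without saying whether they were separate cultures, so p-values measure the spread between these samples. The members and the gene lists were chosen with earlier results of these data known. Other genes were named by size: for each list, the 3 with the largest change against NSC and the 2 with the largest between day 4 groups, among called genes. For Atf4, Ddit3 and Phgdh, the 4 most correlated genes whose mean reached 10 CPM in any group were taken. In the lists, Map2 and Myrf were matched by Ensembl identifier. Exon lengths came from GENCODE M21 (merged exons) and gene positions from the deposited table. Alternatives were 3 other pseudocounts, 2 filters, 3 scalings, a fit of the 2 groups alone, an untrended prior, the replicate number as a block, and each library left out in turn.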

Additional observations from a re-analysis of the deposited data

Results flagged for a closer look

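Members are listed here by a rule. They were called in opposite directions against NSC in 2 day 4 groups, and limma also called the direct comparison of those groups. The adjusted p of each difference is thus part of the rule that picked it and not separate support. Trib3, in addition, passed the expression filter only through the NSC and Oligodendrocyte libraries. Trib3 rose in Oligodendrocyte (0.74) and fell in Neuron (-1.11), a difference of 1.84 (adjusted p = 2.20e-08), and against Astrocyte (-0.73) the difference was 1.46 (adjusted p = 3.56e-07). Chac1 rose in Oligodendrocyte (0.83) and fell in Neuron (-0.48), a difference of 1.31 (adjusted p = 7.75e-07), and against Astrocyte (-0.47) the difference was 1.30 (adjusted p = 1.56e-06). Phgdh fell in Oligodendrocyte (-0.35) and rose in Neuron (0.24), a difference of -0.59 (adjusted p = 0.00033). Each difference had the same direction in 2 of 2 Oligodendrocyte libraries against all 3 libraries of the other group. The rises of Trib3 and Chac1 over NSC, the rise of Phgdh in Neuron and its fall in Oligodendrocyte (adjusted p = 0.0535 without Oligodendrocyte replicate 1) were lost under some settings, while the 5 differences kept their calls wherever they were tested.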

How the results depend on the processing

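Of 60 member results (10 genes in 6 comparisons), 48 kept their call under every alternative and 12 changed it under at least 1. Of 1307 values under alternatives, 23 changed their call and 0 reversed a called direction. The sign changed in 10 values, 0 of them called, in 4 results not called before: Phgdh in Astrocyte against NSC (-0.09 with median-of-ratios scaling), Atf4 and Chac1 in Astrocyte against Neuron (up to 0.05 and down to -0.17) and Ddit3 in Oligodendrocyte against Astrocyte (up to 0.002). The changed results are given beside each gene, apart from 3 in which a call was gained. Asns was lower in Astrocyte than in Neuron under quantile normalization (-0.29, adjusted p = 0.00682). Phgdh was higher in Astrocyte than in NSC under quantile normalization (0.22, adjusted p = 0.0499), and lower in Astrocyte than in Neuron without Astrocyte replicate 3 (-0.25, adjusted p = 0.0306). Trib3 and Chac1 could not be tested with a filter of 5 CPM. The number of genes called in Oligodendrocyte against Astrocyte was 6966, and 4906 without Oligodendrocyte replicate 2. The share of calls that were higher moved by more than 10 points with scaling in several comparisons. In Oligodendrocyte against NSC it went from 59.9% to 49.7% with median-of-ratios scaling and 47.7% with quantile normalization. In Oligodendrocyte against Neuron it went from 65.1% to 52.4% and 48.0%, and in Astrocyte against Neuron from 64.7% to 52.7% and 48.5%. With a replicate block, 9, 10, 10, 6, 10 and 7 members were called in Astrocyte, Neuron and Oligodendrocyte against NSC, Astrocyte against Neuron, Oligodendrocyte against Neuron and Oligodendrocyte against Astrocyte, and 11146, 11079, 10596, 8265, 8894 and 6793 genes. The labels do not say whether the replicate numbers pair the samples. Of 15 same-numbered pairs across groups, 6 correlated above 0.1 (range -0.51 to 0.41), as did 7 of 30 pairs with different numbers (-0.54 to 0.54). For 5 of 11 libraries the best match in another group had their own number. The correlations come from few libraries per group, centred on their group mean, so they cannot decide whether the numbers mark pairs. The Oligodendrocyte group has 2 libraries, so its spread leans on the other groups, and Trib3 in Neuron rests on an estimated 4 to 9 reads per library.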

Other observations

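Of the genes for glycine cleavage and D-serine synthesis, picked after their values were seen, Gldc, Amt and Srr rose in all 3 day 4 groups. Gldc, the glycine decarboxylase, rose from 86.5 ± 3.9 CPM in NSC to 279.7 ± 15.8 CPM in Neuron (log2 fold change 1.68, limma adjusted p = 7.27e-10), 148 ± 22 CPM in Astrocyte (0.76) and 161 ± 10 CPM in Oligodendrocyte (0.88). Amt, its aminomethyltransferase, rose from 17.3 ± 1.3 CPM to 51.5 ± 0.76 CPM in Astrocyte (1.52), 28.9 ± 1.0 CPM in Neuron (0.71) and 36.9 ± 4.1 CPM in Oligodendrocyte (1.05). The other subunit genes did not share this: Gcsh differed by 0.11 in Astrocyte, -0.43 in Neuron and -0.17 in Oligodendrocyte, and Dld by 0.004, -0.69 and 0.15, with only the Neuron differences called. Srr, which turns L-serine into D-serine, rose from 25.8 ± 0.42 CPM in NSC to 95.7 ± 2.9 CPM in Astrocyte (1.85), 80.5 ± 2.9 CPM in Neuron (1.61) and 93.8 ± 2.1 CPM in Oligodendrocyte (1.82).

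Genes of the endoplasmic reticulum stress arms were also read. Of 15, 12 were higher and 1 lower in Oligodendrocyte than in Neuron (median 0.57, all genes 0.15), and 5 rose and 9 fell in Neuron against NSC (-0.57), 6 and 6 in Astrocyte (0.08) and 7 and 3 in Oligodendrocyte (0.17). With median-of-ratios scaling these became 5 and 7 in Astrocyte (-0.10) and 4 and 4 in Oligodendrocyte (-0.04). Over all genes 43.5% were called higher and 39.6% lower in Neuron against NSC (median 0.06), 48% and 35.6% in Astrocyte (0.15), and 48.1% and 32.2% in Oligodendrocyte (0.19). In Oligodendrocyte against Neuron 43.9% of all genes were called higher and 23.6% lower. The co-chaperone gene Dnajb9, a target of the IRE1 arm, rose in all 3 day 4 groups, from 14.1 ± 0.42 CPM to 50.9 ± 2.5, 49.1 ± 7.6 and 46.2 ± 4.4 CPM in Astrocyte, Neuron and Oligodendrocyte. The chaperone gene Hyou1 stood at 120.5 ± 2.8 CPM in NSC, 72.2 ± 1.4 in Astrocyte, 43.5 ± 4.2 in Neuron and 106 ± 0.36 CPM in Oligodendrocyte. The disulfide isomerase gene Pdia4 was highest in Astrocyte, at 329 ± 9.7 CPM against 135 ± 0.15 CPM in Oligodendrocyte (-1.28).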
